A study of Mus musculus with 6 samples.

Results

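The 10 genes described here are components of the circadian clock, namely Clock, the period genes Per1, Per2 and Per3, the cryptochrome genes Cry1 and Cry2, the REV-ERB genes Nr1d1 and Nr1d2, and the output genes Dbp and Tef. They were chosen by gene symbol, and all 10 were found among the 57010 genes of the count table and were abundant enough to be tested, as were 14799 genes in all. The study treated hypoxic (HO) primary neonatal mouse cardiomyocytes (NMCMs) with vehicle or with β-sitosterol (β-SITO), a plant sterol, and profiled them by RNA-seq. There were 3 libraries of HO + Vehicle (V1, V2 and V3) and 3 of HO + β-SITO (T4, T5 and T6). Both groups carried the hypoxic stress, and no normoxic library was analysed here. The cells came from C57BL/6 pups in their first days of life and had been parted from cardiac fibroblasts by letting the fibroblasts stick to the dish, which leaves a mixed culture. The names of the treated libraries alone carry the letter C, so any separate handling and the treatment cannot be told apart. The sterol dose, the time under hypoxia and the hour of harvest of these libraries are not given in the sources used here. Any difference in harvest hour between the groups and the treatment thus cannot be told apart. The labels do not say whether the 3 libraries of a group came from separate cultures, so p-values measure the spread between these libraries, which may be technical.

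The mammalian clock is a loop of transcription and feedback that runs in nearly every cell, heart muscle included. CLOCK pairs with BMAL1, the product of Arntl, and the pair binds E-box elements to switch on the Per, Cry and Nr1d genes as well as Dbp and Tef. PER and CRY proteins then shut off the CLOCK and BMAL1 pair, while the REV-ERB receptors (NR1D1 and NR1D2) repress Arntl and the ROR receptors activate it. DBP and TEF belong to the PAR bZIP family and bind D-box elements in output genes, and in the heart the clock is known for its daily control of metabolism and electrical activity. Each library pools many cells taken at 1 time, and the paper describes no step to align their clocks. Neither phase nor amplitude can thus be read from a library.

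For 9 of the 10 genes a promoter sequence was found in the RefSeq table (GRCm38.p6), covering 250 bases before to 50 bases after a start site, and Per2 had no entry. Each was searched on both strands for 4 motifs. They were the E-box CACGTG, the related E'-box CACGTT, the D-box TTATGTAA or TTACGTAA, and the RORE core TAGGTCA. No match overlapped another. The windows shown are those of genes that were higher in the treated cells and held an E-box or a D-box, with matches to any of the motifs in capitals. Per1 lies at chr11:69098699-69098998 (plus strand), Per3 at chr4:151044616-151044915 (minus strand), Cry1 at chr10:85185005-85185304 (minus strand), and Tef at chr15:81802423-81802722 and chr15:81811164-81811463 (plus strand). All are printed 5′ to 3′ on the strand of the gene.
Per1: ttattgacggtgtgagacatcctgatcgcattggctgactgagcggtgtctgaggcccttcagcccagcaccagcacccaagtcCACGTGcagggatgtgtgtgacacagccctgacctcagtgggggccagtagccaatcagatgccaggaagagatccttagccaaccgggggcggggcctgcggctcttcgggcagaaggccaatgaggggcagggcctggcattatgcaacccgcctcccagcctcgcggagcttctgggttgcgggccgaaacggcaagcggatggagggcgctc
Per3: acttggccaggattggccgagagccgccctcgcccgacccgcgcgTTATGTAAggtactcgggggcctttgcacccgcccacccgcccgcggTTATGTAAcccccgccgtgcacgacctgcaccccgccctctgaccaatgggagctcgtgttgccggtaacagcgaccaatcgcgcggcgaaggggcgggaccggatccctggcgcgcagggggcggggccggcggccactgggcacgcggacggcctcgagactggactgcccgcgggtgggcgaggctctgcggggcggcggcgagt
Cry1: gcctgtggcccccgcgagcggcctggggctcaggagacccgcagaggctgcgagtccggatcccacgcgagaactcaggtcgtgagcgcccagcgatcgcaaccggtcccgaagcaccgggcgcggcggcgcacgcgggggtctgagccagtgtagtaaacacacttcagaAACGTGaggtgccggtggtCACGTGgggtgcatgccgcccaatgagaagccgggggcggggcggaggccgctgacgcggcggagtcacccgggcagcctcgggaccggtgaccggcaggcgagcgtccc
Tef, upstream start site: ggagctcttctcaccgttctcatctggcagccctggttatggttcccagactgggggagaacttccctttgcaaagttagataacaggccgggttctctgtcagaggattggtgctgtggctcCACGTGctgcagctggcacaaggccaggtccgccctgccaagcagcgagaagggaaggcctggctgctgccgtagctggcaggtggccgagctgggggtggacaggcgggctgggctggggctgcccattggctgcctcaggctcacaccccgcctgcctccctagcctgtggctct
Tef, downstream start site: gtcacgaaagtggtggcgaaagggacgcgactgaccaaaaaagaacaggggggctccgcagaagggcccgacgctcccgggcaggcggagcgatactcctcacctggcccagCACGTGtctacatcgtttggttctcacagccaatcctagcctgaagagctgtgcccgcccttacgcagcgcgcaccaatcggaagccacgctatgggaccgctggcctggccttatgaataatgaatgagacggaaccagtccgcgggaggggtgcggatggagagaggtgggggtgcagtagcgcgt
The E-box began 166 bases before the start site in Per1, 60 in Cry1, and 127 and 138 at the 2 start sites of Tef. Per3 held the D-box TTATGTAA at 205 and again at 158 bases before its start. Cry1 also held an E'-box, read on the other strand, 79 bases before the start. Of all 32851 promoter windows in the table, 7.15% held the E-box, 4.68% the E'-box, 1.06% the D-box and 2.61% the RORE core. The windows of Dbp, Clock and Nr1d2 held none of the 4 motifs. Those of Cry2 and Nr1d1 held 1 E'-box each, 166 and 28 bases before the start. A second Per1 window, at chr11:69099902-69100201, held none. These matches are letters in a short window, and no binding was measured in these libraries.

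Expression was compared as CPM, the share of a gene in the counts of its library after TMM scaling, and a gene was called a differentially expressed gene (DEG) at an adjusted p under 0.05 and a change of more than 2-fold. The 6 libraries held 16694734 to 18460522 counts each. Of the 10 clock genes, 2 were DEGs that rose under β-SITO, Per3 and Dbp, against 12.8% of all genes tested. None of the 10 was a DEG that fell, against 10.1% of all genes tested. Without the fold cutoff, 7 of the 10 genes were higher at an adjusted p under 0.05 (33.0% of all genes) and 1, Clock, was lower (33.8% of all genes). The median log2 fold change was 0.60 over the 10 genes and -0.01 over all genes tested. The groups did not overlap for 7 clock genes that were higher (34.8% of all genes) and for 2 that were lower (35.8% of all genes). About as many genes of all kinds were higher as lower, and most clock genes were higher. Scaling also matters for the smaller values. With library size alone the median of all genes moved from -0.01 to 0.14 on the log2 scale, and the log2 fold changes of the clock genes move up with it.

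**Figure D1:**
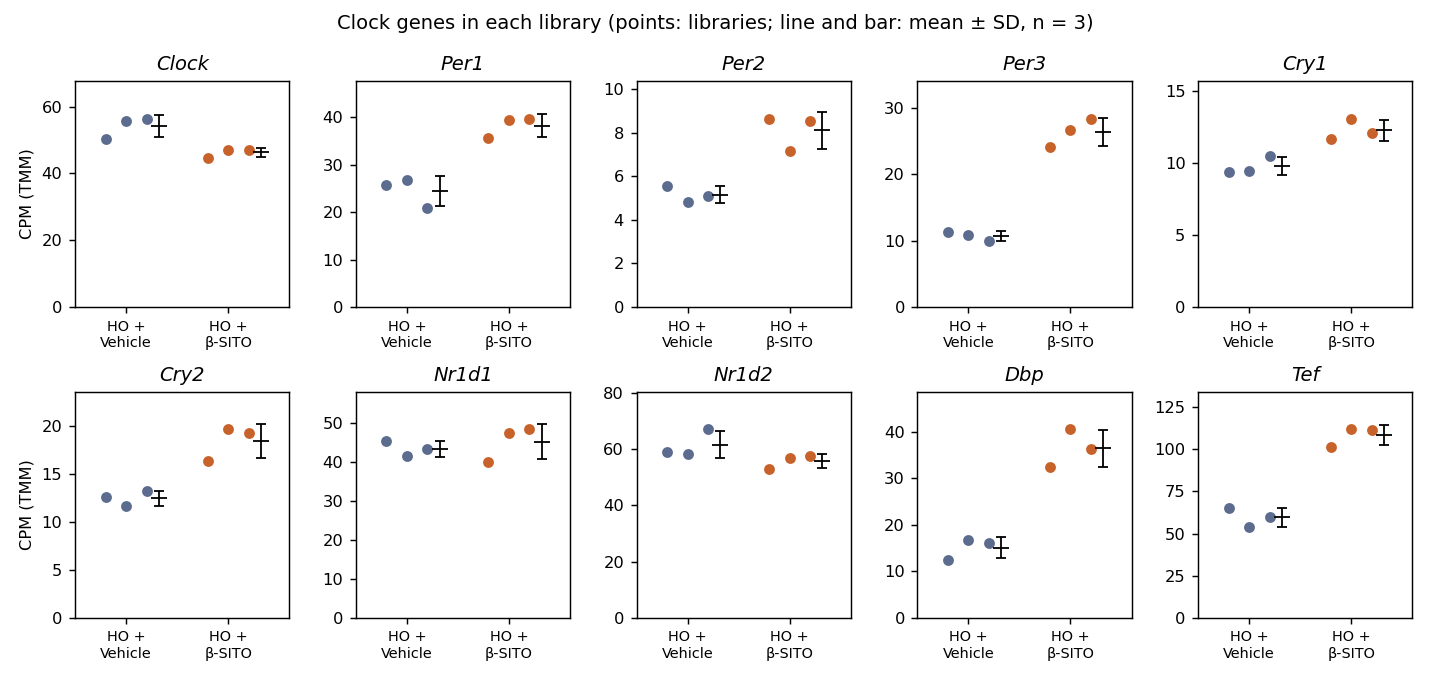
CPM of each clock gene (vertical axis from 0, TMM-scaled) in the 3 HO + Vehicle and 3 HO + β-SITO libraries, with the mean and SD beside the points. Per3, Dbp and Tef show the widest gaps between the groups, while the points of Nr1d1 overlap.

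The cultures also differed in the markers of several cell types, and the share of each cell type and the RNA content per cell cannot be told apart in bulk libraries. All 10 cardiomyocyte markers were detected, and their summed level was 6194 to 7174 CPM with vehicle and 5498 to 9383 CPM with β-SITO. Of these, 2 were DEGs higher and 0 were DEGs lower, where 12.8% and 10.1% of all genes tested were. At an adjusted p under 0.05, 3 were higher and 2 lower, where 33.0% and 33.8% of all genes tested were. Fibroblast markers summed to more than the cardiomyocyte markers in every library, from 29833 to 31113 CPM with vehicle and from 44413 to 45501 CPM with β-SITO. Most of this sum was Col1a1, Col1a2 and Col3a1, with means of 9100, 6800 and 10421.5 CPM with vehicle. Such sums also carry gene lengths, so they do not rank the cell types. Of the 8 fibroblast markers 0 were DEGs. At an adjusted p under 0.05, 5 were higher and 2 lower, where 33.0% and 33.8% of all genes tested were. The 6 endothelial markers were all DEGs that rose, as were 12.8% of all genes tested. Their sum was 189.6 to 218.0 CPM with vehicle and 767.1 to 806.7 CPM with β-SITO. The 8 macrophage markers summed to 1050 to 1164 CPM with vehicle and to 2238 to 2745 CPM with β-SITO. Most of this sum was Lyz2, with means of 647 CPM with vehicle and 1408 CPM with β-SITO. Among the 8 macrophage markers 4 were DEGs higher and 1 was a DEG lower, where 12.8% and 10.1% of all genes tested were. At an adjusted p under 0.05, 5 were higher (33.0% of all genes tested) and 1, Cd14, was lower (33.8% of all genes), at -1.56 on the log2 scale. Ptprc (-0.03, adjusted p = 0.813) and Adgre1 (-0.06, adjusted p = 0.471) did not pass. The 5 smooth muscle and pericyte markers rose from 1095 to 1186 CPM to 1875 to 2119 CPM in sum. Most of this sum was Acta2 and Pdgfrb, with means of 562 and 528 CPM with vehicle, while Myh11 and Rgs5 had 8.80 and 11.7 CPM. All 5 were higher at an adjusted p under 0.05 (33.0% of all genes tested), and 2 were DEGs (12.8% of all genes). The 4 cell cycle genes rose from 178.8 to 198.5 CPM to 323.0 to 350.4 CPM in sum. No defining marker was at 0. The part of these shifts in the clock values was not tested.

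Among the treated libraries, T4 had the lowest value for 9 of the 10 clock genes, Per2 being the exception. No vehicle library was lowest for more than 5. T4 also had the lowest sum of cardiomyocyte markers, 5498 CPM against 9245 and 9383 CPM in T5 and T6, and the highest sum of macrophage markers, 2745 CPM against 2269 and 2238 CPM. The part of these differences in the clock values was not tested. Without T4 the log2 fold changes of Per3 and Dbp were 1.36 and 1.35, both again DEGs, and that of Per2 was 0.61.

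Clock, the activator, was the 1 gene of the 10 that was lower at an adjusted p under 0.05. It encodes a transcription factor of the bHLH-PAS family, and its gene lies on chromosome 5 from 76357715 to 76452639 (minus strand, coordinates as deposited, for which the submitters' notes name GRCm39). Clock stood at 50.5, 55.7 and 56.4 CPM in V1, V2 and V3 and at 44.8, 47.0 and 47.2 CPM in T4, T5 and T6. Every treated library lay below every vehicle library, by a small margin. The log2 fold change was -0.23 ± 0.07 (SE; 95% interval -0.37 to -0.08; edgeR's quasi-likelihood test, adjusted p = 0.00752). This decrease was lost with library size alone (-0.08, adjusted p = 0.313), with upper quartile scaling (-0.08, adjusted p = 0.285) and without V3 (-0.17, adjusted p = 0.0602).

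The partners of CLOCK were measured as well. They come from a list of 28 further genes of the pathway. Arntl, which encodes BMAL1, had 9.79, 10.2 and 8.86 CPM with vehicle and 13.7, 14.0 and 12.1 CPM with β-SITO. The groups did not overlap, and Arntl was higher by 0.46 ± 0.11 on the log2 scale (SE, adjusted p = 0.00122), which did not reach 2-fold. Npas2, whose product can stand in for CLOCK, was higher by 0.60 ± 0.17 (SE, adjusted p = 0.00552), and its levels of 3.76 to 5.87 CPM with vehicle stayed below those of 6.53 to 7.42 CPM with β-SITO. Arntl2, a relative of Arntl, overlapped between the groups at 3.16 to 4.26 and 2.87 to 3.23 CPM, with a log2 fold change of -0.29 (95% interval -0.67 to 0.10; adjusted p = 0.171). Within the positive limb, Clock was lower while Arntl and Npas2 were higher, each by less than 2-fold.

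All 5 genes of the PER and CRY repressors were higher under β-SITO at an adjusted p under 0.05, as were 33.0% of all genes tested. Per3 had the largest change and was the only DEG among them. PER proteins carry the repressor complex into the nucleus together with CRY. Per3 (chromosome 4, 151088109 to 151129122, minus strand) had 11.4, 10.9 and 9.92 CPM in V1, V2 and V3 against 24.1, 26.6 and 28.4 CPM in T4, T5 and T6. The lowest treated library was thus above 2 times the highest vehicle library. Its log2 fold change was 1.30 ± 0.10 (SE, adjusted p = 8.74e-09), a 2.46-fold increase, which held between 1.25 and 1.36 when any library was left out. In the deposited annotation the whole of Per3 lies inside the span of Camta1 on the same strand, and Camta1 had a log2 fold change of 0.40. In GENCODE vM21, an older annotation on another build, the exons of the pair share 0 bases.

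Per1 (chromosome 11, 68986043 to 69000786, plus strand) is the period gene that also answers quickly to hormones and cAMP. It had 25.6, 26.8 and 20.9 CPM with vehicle and 35.6, 39.5 and 39.7 CPM with β-SITO. V3 was the low library of the vehicle group, and the groups stayed apart. Per1 rose by 0.64 ± 0.09 on the log2 scale (SE, adjusted p = 1.60e-05), a 1.56-fold change. Per2 (chromosome 1, 91343704 to 91387046, minus strand) had the fewest counts of the 10 genes, with 88, 77 and 82 counts in V1, V2 and V3 and 168, 127 and 164 counts in T4, T5 and T6. In CPM these were 5.56, 4.83 and 5.08 against 8.63, 7.14 and 8.54. Its log2 fold change of 0.65 ± 0.14 (SE, adjusted p = 5.44e-04) was close to that of Per1, with a wider interval of 0.36 to 0.94.

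The cryptochromes bind and silence the CLOCK and BMAL1 pair directly. Cry1 (chromosome 10, 84967564 to 85020928, minus strand) had 9.41, 9.47 and 10.5 CPM with vehicle and 11.7, 13.1 and 12.1 CPM with β-SITO, so the highest vehicle and lowest treated values lay near each other. It showed the smallest increase that passed, 0.33 ± 0.10 on the log2 scale (SE, adjusted p = 0.0118). Cry2 (chromosome 2, 92233991 to 92264388, minus strand) had 12.6, 11.7 and 13.2 CPM against 16.4, 19.7 and 19.3 CPM, with no overlap and T4 lowest among the treated libraries. Cry2 rose by 0.56 ± 0.10 on the log2 scale (SE, adjusted p = 1.38e-04).

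The REV-ERB genes did not follow the PER and CRY genes. NR1D1 and NR1D2 are heme-binding nuclear receptors that repress Arntl and form the second loop of the clock. Nr1d1 (chromosome 11, 98658758 to 98666159, minus strand) had 45.4, 41.3 and 43.3 CPM in V1, V2 and V3 and 40.0, 47.2 and 48.3 CPM in T4, T5 and T6. The groups overlapped, because T4 was lower than all vehicle libraries and T5 and T6 were higher. The log2 fold change was 0.06 (95% interval -0.11 to 0.23; adjusted p = 0.529), so changes beyond 0.23 lie outside the interval. Nr1d2 (chromosome 14, 4230569 to 4265642, plus strand) had 59.0, 58.4 and 67.0 CPM against 53.1, 56.8 and 57.5 CPM. Each treated library was below each vehicle library, yet the log2 fold change of -0.14 (95% interval -0.29 to 0.01; adjusted p = 0.0891) did not pass. Its direction turned with library size alone (0.01), and with that scaling Nr1d1 passed at 0.21 (adjusted p = 0.0288).

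Nr1d1 shares its 3′ end with Thra, the thyroid hormone receptor gene on the opposite strand. The spans overlap by 1075 bases in the deposited annotation, and in GENCODE vM21 8.55% of Nr1d1 exon bases are also exon of Thra. Thra had 49.6 ± 2.46 CPM with vehicle and 104.4 ± 6.02 CPM with β-SITO (SD, n = 3) and was a DEG that rose by 1.07 on the log2 scale (edgeR, adjusted p = 1.05e-09). Whether counting used the strand is not given in the sources used here, so reads of the shared part may be assigned to either gene or to none. The part of Thra in the values of Nr1d1 was not tested.

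The output genes showed the largest changes together with Per3. DBP and TEF are activators of D-box genes, and DBP is a classic direct target of the clock. Dbp (chromosome 7, 45354512 to 45359627, plus strand) had 12.5, 16.7 and 16.0 CPM in V1, V2 and V3 and 32.4, 40.5 and 36.4 CPM in T4, T5 and T6. The groups were far apart, although the vehicle libraries of Dbp had the widest relative spread of the 10 genes (coefficient of variation 14.8%). The log2 fold change was 1.27 ± 0.11 (SE, adjusted p = 5.98e-08), a 2.42-fold increase, and it ranged from 1.18 to 1.35 when any library was left out. Sphk2 on the opposite strand overlaps Dbp by 737 bases in the deposited annotation, and in GENCODE vM21 18% of Dbp exon bases are also exon of Sphk2. Sphk2 had a log2 fold change of -0.14 (adjusted p = 0.138).

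Tef (chromosome 15, 81686622 to 81711064, plus strand) rose without reaching 2-fold. It had 65.0, 54.0 and 59.6 CPM with vehicle and 101.5, 111.9 and 111.8 CPM with β-SITO. Tef rose by 0.86 ± 0.07 on the log2 scale (SE, adjusted p = 4.42e-08), a 1.82-fold change just short of the cutoff. The related genes on the pathway list split. Hlf, the third PAR bZIP gene, had 6.88, 7.77 and 8.37 CPM against 8.99, 14.7 and 15.8 CPM, a log2 fold change of 0.77 ± 0.18 (SE, adjusted p = 0.00117), with T4 close to the vehicle libraries. Hlf is named here because of its value. Nfil3, which encodes a repressor that competes for the D-box, had 44.1 ± 2.52 CPM with vehicle and 20.9 ± 1.54 CPM with β-SITO (SD, n = 3), with no overlap. Nfil3 was thus a DEG that fell, at -1.08 ± 0.08 on the log2 scale (SE; edgeR, adjusted p = 9.74e-09). The DEG call of Nfil3 was lost with library size alone (-0.93), with upper quartile scaling (-0.94) and with glmTreat.

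**Figure D2:**
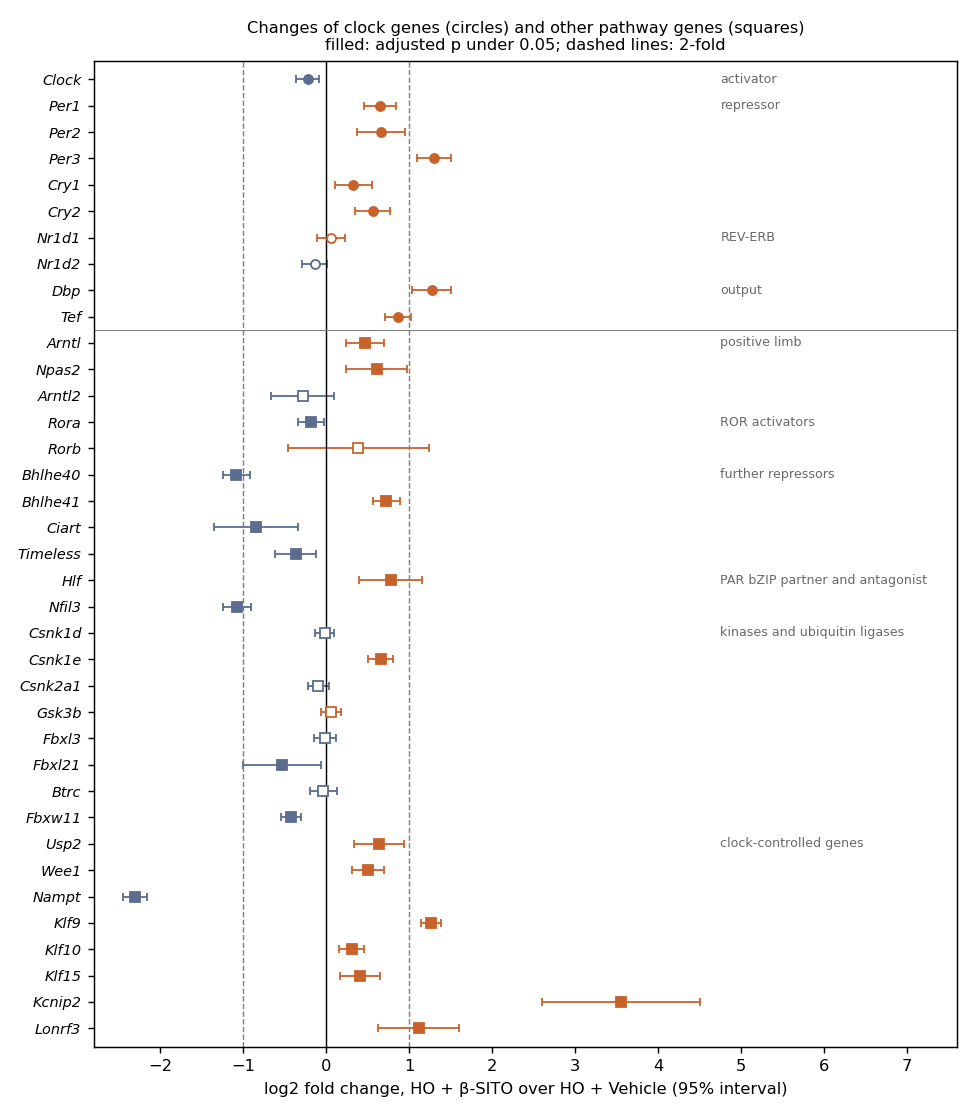
Log2 fold change of HO + β-SITO over HO + Vehicle with its 95% interval (horizontal axis) for the 10 clock genes (circles) and other genes of the pathway (squares), grouped by role. Filled symbols passed an adjusted p under 0.05 and dashed lines mark 2-fold, which Per3, Dbp, Klf9, Kcnip2 and Lonrf3 exceeded upward and Bhlhe40, Nfil3 and Nampt downward.

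The remaining pathway genes did not move as 1 group. Of the 28 genes on the list, all were tested, 3 were DEGs higher and 3 were DEGs lower, where 12.8% and 10.1% of all genes tested were. At an adjusted p under 0.05, 13 were higher and 8 lower, where 33.0% and 33.8% of all genes were. The DEG counts are near those shares, and the median log2 fold change was 0.18. Rora, which encodes an activator of Arntl, had 60.6, 65.4 and 61.7 CPM with vehicle and 49.5, 60.3 and 55.4 CPM with β-SITO, a log2 fold change of -0.19 ± 0.07 (SE, adjusted p = 0.0385). The groups did not overlap, though V1 and T5 nearly met. Rora did not pass with DESeq2 (adjusted p = 0.0643), with upper quartile scaling (-0.04, adjusted p = 0.626), with library size alone (-0.04, adjusted p = 0.667) or without V1, V2, V3, T4 or T6, each left out in turn (adjusted p = 0.0643, 0.112, 0.108, 0.191 and 0.0842 by edgeR). Rorb was below 1 CPM in every library. Further repressors went both ways. Bhlhe40 (DEC1), which competes for the E-box and is also induced by hypoxia, fell from 228.2, 208.7 and 221.4 CPM to 89.6, 108.6 and 111.7 CPM, a log2 fold change of -1.09 ± 0.08 (SE, adjusted p = 5.60e-09). This DEG call was lost without T4 (-0.99), with library size alone (-0.94), with upper quartile scaling (-0.94) and with glmTreat, which tests against 2-fold itself. Its relative Bhlhe41 (DEC2) had 16.6 to 17.5 CPM with vehicle and 27.5 to 28.9 CPM with β-SITO, and rose by 0.72 on the log2 scale (edgeR, adjusted p = 6.86e-07). Ciart, which encodes a repressor of the CLOCK and BMAL1 pair, was lower, at 2.55 ± 0.347 CPM with vehicle and 1.41 ± 0.326 CPM with β-SITO (SD, n = 3; log2 fold change -0.84, adjusted p = 0.00553). Timeless was lower by 0.37 on the log2 scale (adjusted p = 0.00951), with overlapping libraries. It did not pass with upper quartile scaling (-0.23, adjusted p = 0.0932), with library size alone (-0.22, adjusted p = 0.0995), without V1 (-0.28, adjusted p = 0.0655) or without T5 (-0.27, adjusted p = 0.0733).

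Genes known to be driven by the clock included the largest changes on the list in both directions. All 8 of these genes passed an adjusted p under 0.05, 7 higher (33.0% of all genes tested) and 1 lower (33.8% of all genes). Klf9, a transcription factor that glucocorticoids and thyroid hormone also induce, had 64.2, 65.3 and 62.7 CPM with vehicle and 152.6, 157.3 and 151.3 CPM with β-SITO (log2 fold change 1.26 ± 0.06, SE; adjusted p = 2.09e-11). Nampt, which encodes the rate-limiting enzyme of NAD salvage, fell from 231.2, 262.4 and 261.6 CPM to 52.2, 51.8 and 49.0 CPM (-2.30 ± 0.07, SE; adjusted p = 1.09e-13). Kcnip2 encodes a subunit of the transient outward potassium channel of heart muscle, and held 7, 1 and 4 counts with vehicle and 38, 75 and 56 counts with β-SITO (log2 fold change 3.55 ± 0.45, SE; adjusted p = 4.36e-06). With so few vehicle counts the size of this change is imprecise. Lonrf3 rose by 1.12 ± 0.23 on the log2 scale (SE, adjusted p = 4.94e-04), and its DEG call was lost without V2 (0.87) and with glmTreat (adjusted p = 0.613). The other 4 genes of this group were higher by 0.30 to 0.63 on the log2 scale.

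Kinases and ubiquitin ligases set the stability of PER and CRY proteins. Of 8 such genes, 1 was higher (33.0% of all genes tested), 2 were lower (33.8% of all genes) and 5 did not pass an adjusted p under 0.05, the 5 having log2 fold changes between -0.10 and 0.06.

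To set the activator against its targets, CPM of each gene was divided by that of Clock within the same library, with a prior count of 2, so that the scaling of libraries plays little part. The difference between genes in this ratio also carries their lengths, so only the shift between groups is read here. For 7 of 9 genes the ratios of the groups did not overlap, and all 7 were higher under β-SITO. The 9 ratios share Clock, whose own log2 fold change of -0.23 adds to every shift, so they are not independent. The same 7 genes were higher without overlap in CPM, as were 34.8% of all genes tested. The ratio of Per3 to Clock was -2.14, -2.34 and -2.49 on the log2 scale in V1, V2 and V3 and -0.89, -0.82 and -0.73 in T4, T5 and T6, a 2.85-fold shift. That of Dbp to Clock went from -2.00, -1.73 and -1.81 to -0.47, -0.21 and -0.37, a 2.82-fold shift. Tef shifted 2.13-fold against Clock, Per1 1.83-fold, Per2 1.82-fold, Cry2 1.72-fold and Cry1 1.46-fold. The ratios of Nr1d1 and Nr1d2 to Clock overlapped between the groups, with shifts of 1.21-fold and 1.06-fold. No p is given for these ratios, since the genes were chosen with earlier results known.

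**Figure D3:**
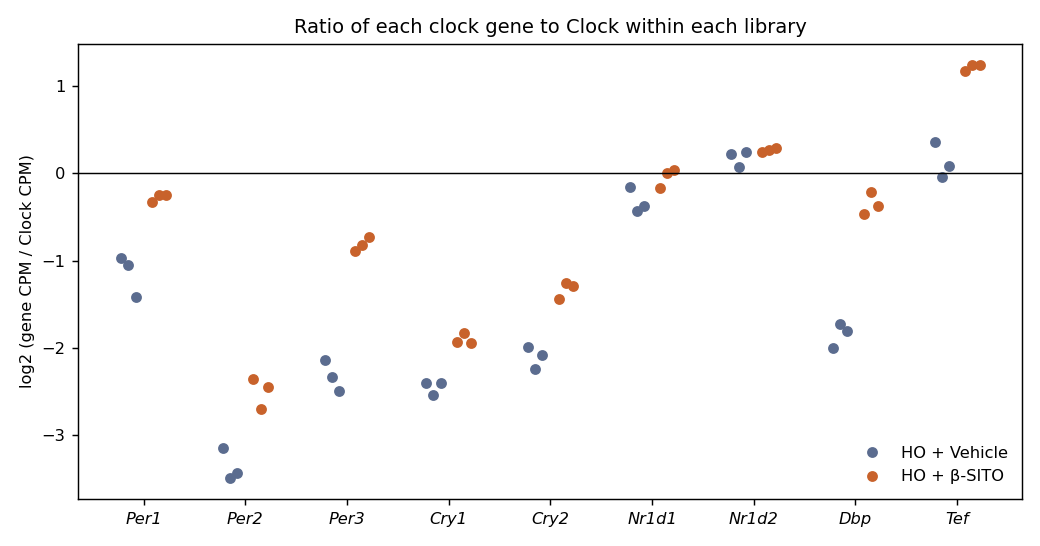
Log2 ratio of the CPM of each clock gene to that of Clock (vertical axis) in each of the 3 HO + Vehicle and 3 HO + β-SITO libraries. The 3 treated libraries lie above the 3 vehicle libraries for all genes but Nr1d1 and Nr1d2.

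Related genes also shifted against each other. Per3 gained on Per2 in every treated library, with log2 ratios of 0.95 to 1.16 with vehicle and 1.47 to 1.88 with β-SITO. The ratio of Per1 to Per2 overlapped between the groups, with means of 2.22 and 2.23. Cry1 lost ground to Cry2, from -0.42 to -0.30 down to -0.66 to -0.49 on the log2 scale. Dbp gained on Tef, from -2.37 to -1.69 up to -1.64 to -1.46, where V2 and T4 nearly met. The ratio of Nr1d1 to Nr1d2 overlapped, because T4 lay among the vehicle libraries.

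Levels can be compared between genes only per length, and for this CPM was divided by the exon length of each gene in GENCODE vM21. This length joins all annotated exons of a gene, whether or not they are used in these cells, so the order below depends on it. Exon bases shared with Thra (8.55% of Nr1d1) and with Sphk2 (18% of Dbp) were not taken out. Nr1d1 was the highest of the 10 genes in both groups, with 14.1 ± 0.657 CPM per kilobase with vehicle and 14.7 ± 1.47 with β-SITO (SD, n = 3). In vehicle libraries Nr1d2 (11.4 ± 0.886), Tef (7.57 ± 0.697) and Dbp (5.03 ± 0.747) came next, followed by Per1, Clock, Cry1, Cry2, Per3 and Per2 (0.881 ± 0.0634). Dbp could not be told from Per1, nor Per1 from Clock, as their libraries overlapped. In treated libraries Tef (13.8 ± 0.757) and Dbp (12.2 ± 1.36) moved above Nr1d2 (10.3 ± 0.439), and the values of Nr1d1, Tef and Dbp overlapped in that order. Clock was above Cry1 with vehicle and below it with β-SITO, and Per3 overlapped Cry2 (2.75 ± 0.223 against 2.92 ± 0.283). Per2 was the lowest in both groups.

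**Figure D4:**
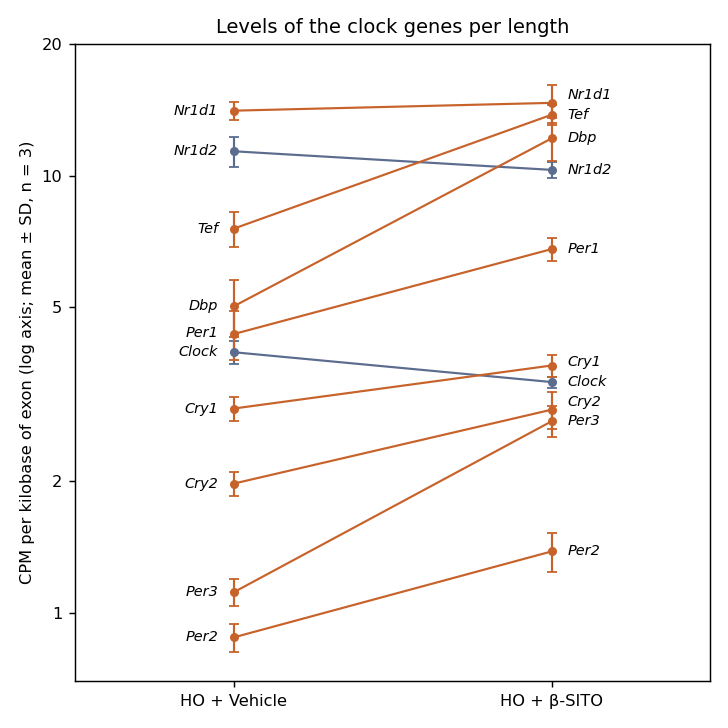
CPM per kilobase of exon (log axis) of the 10 clock genes in both groups, as mean ± SD of 3 libraries, joined by a line per gene. Tef, Dbp and Per3 climb most, and Nr1d1, Nr1d2 and Clock change least.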

How the data were processed

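Raw gene counts deposited by the authors were used, 1 column per library, and 0 columns of per-sample values were left unused. The submitters' processing notes name FastQC, HISAT2, featureCounts and GRCm39, and the strand setting is not given in the sources used here. The paper and the labels name different library kits. Counts were tested in edgeR 4.0.16 (R 4.3.3) with filterByExpr, TMM scaling and the quasi-likelihood test on both groups, with Benjamini-Hochberg adjustment over all 14799 genes tested. All adjusted p-values come from this test unless another is named, and the study's DESeq2 thresholds (adjusted p under 0.05, over 2-fold) defined DEGs. The biological coefficient of variation was 6.52%. All library pairs within a group differed beyond sampling noise. The fit was tested on simulated data. Alternatives were DESeq2 1.42.0, limma-voom (limma 3.58.1), glmTreat, other scalings and filters, and leaving out each library or the mitochondrially encoded genes.

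The 10 genes, the 28 further pathway genes and the marker lists were chosen with earlier results of these data known. Named were the 10 genes, the DEGs of the pathway list, and its positive limb, ROR and repressor genes. Hlf and single cell type markers, outside these groups, were named because of their values. Also named were protein-coding genes whose span overlaps 1 of the 10. Other overlapping genes were Gm43658 and Ube2n-ps1 (both with Clock), D930015M05Rik (with Cry2) and Gm17597 (with Tef). Ube2n-ps1, a pseudogene on the strand of Clock, had 23, 23 and 38 counts with vehicle and 108, 27 and 46 with β-SITO. The others had at most 1 count in any library. A gene of the pathway list is counted but not reported here.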

Additional observations from a re-analysis of the deposited data

How the results depend on the processing

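Per3 and Dbp were DEGs under all 16 alternatives. Of 160 refitted values of the 10 genes, 150 kept their direction and their DEG call, 8 were newly called and 2 reversed. Most of the 8 came from removing the fold cutoff. A gene under 2-fold that lost or gained its adjusted p counts as unchanged here. In the 15 alternatives apart from glmTreat, Clock passed an adjusted p under 0.05 in 12 and Nr1d1 in 2. Both reversals were Nr1d2, at 0.0031 with upper quartile scaling and 0.0082 with library size alone. Without the fold cutoff 7 clock genes were higher and 1 was lower, and 13 pathway genes were higher and 8 lower. The pathway genes called higher numbered 2 with glmTreat and 2 without V2, against 3 in the main fit. The pathway genes called lower numbered 1 with glmTreat, with upper quartile scaling and with library size alone. They numbered 2 without T4 and 4 without T6, against 3 in the main fit. Over all genes tested, 1265 were called higher with glmTreat, against 1888 in the main fit. Those called lower over all genes numbered 1177 with glmTreat, 1288 with upper quartile scaling and 1285 with library size alone, against 1492. Tef was a DEG with upper quartile scaling and with library size alone. The cause of these shifts was not tested, apart from the removed cutoff itself. Of 112 recomputed ratio differences 109 kept their sign, and the 3 others were Per1 to Per2, which was near 0 (0.01) and lay at -0.01 without V1, -0.09 without V3 and -0.10 without T5. No paired analysis was possible because the groups share no replicate number. Each group has 3 libraries, and whether they were harvested at the same hour is not given. The counts of Per2 (77 to 168 per library) limit the precision of its values.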
